A study of Mus musculus with 11 samples.

Results

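Most ATP of an early embryo is made in mitochondria inherited from the egg, and the respiratory chain that drives it is built from subunits encoded in the nucleus and in mitochondrial DNA. The genes described here are the nuclear-encoded ones, taken by name from the deposited table of all genes: Nduf genes of the a, b, c, s and v series, Sdha to Sdhd, Uqcr genes, Cox4 to Cox8 genes and Atp5 genes, without names that carry the pseudogene suffix -ps. They were 84 of 49585 genes, of which 37 belonged to complex I, 4 to complex II, 8 to complex III, 18 to complex IV and 17 to complex V. All 84 passed the filter on low values, at least 1 TPM in at least 2 libraries, and 6 names ending in -ps were left out.

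Complexes I and II pass electrons from NADH and succinate to ubiquinone, complex III passes them on to cytochrome c, and complex IV to oxygen. Complexes I, III and IV pump protons across the inner membrane, and complex V, the ATP synthase, uses their return flow to make ATP. In the mouse the egg's stored transcripts are largely degraded by the 2-cell stage, when the embryo's own genome is switched on. Mitochondrial DNA is hardly replicated before the blastocyst stage.

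The embryos were C57BL/6 mouse embryos of 4 groups. ROSI embryos, made by injecting a round spermatid (a haploid cell that has not yet formed a sperm head and tail) into an egg, were sequenced at the 2-cell stage (3 libraries) and as zygotes (2 libraries). ICSI embryos, made by injecting a sperm, were sequenced at the 2-cell stage (3 libraries) and as zygotes (3 libraries). The ROSI embryos were activated with 5 mM SrCl2 in Ca2+-free CZB medium for 1 to 2 h and then cultured in KSOM, and the ICSI embryos were cultured in KSOM, so that the injected cell and the activation cannot be told apart. The series is about how marks carried by the round spermatid bear on genome activation, and its design sets ROSI against ICSI at each stage. The labels give no age, collection time, number of embryos per library or batch, and do not say that libraries of a group came from separate collections, so p-values measure the spread between these libraries, which may be technical.

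Values are TPM (transcripts scaled to 1000000 per library), a level per length of a gene. They came out near whole reads with the length of all annotated exons of a gene, not of 1 transcript. That length is 4912 bases for Atp5g1 and 1675 for Atp5g2, so levels, shares and sums across genes depend on the annotation. Comparisons of the same gene between libraries use the same length. Reads recovered from the TPM came to 20.5 to 23.0 M (M, 1000000 reads) in ROSI 2-cell libraries, 8.48 to 32.9 M in ICSI 2-cell libraries, 30.4 and 85.9 M in ROSI zygote libraries and 70.7 to 83.0 M in ICSI zygote libraries. Summed markers followed the labelled stages: 10 genes of 2-cell embryos summed to 453 to 652 TPM in ROSI and 921 to 960 TPM in ICSI 2-cell embryos, against 93.8 to 104 TPM in ROSI and 94.0 to 127 TPM in ICSI zygotes. In contrast, 12 oocyte genes summed to 1016 to 1226 TPM in ROSI and 1601 to 1617 TPM in ICSI 2-cell embryos, against 6539.8 to 7455 TPM in ROSI and 7874 to 9114 TPM in ICSI zygotes. Nuclear protein-coding genes held 38.5% to 46.3% of all TPM in 2-cell embryos and 63.7% to 68.9% in zygotes, while mitochondrial transcripts held 20.6% to 25.8% in 2-cell embryos and 9.97% to 11.8% in zygotes. For that reason the main counts of members are given first on the TPM scale and then on a protein-coding scale, added after the data were seen. On it the nuclear protein-coding genes of each library sum to 1000000. Counts given without a second scale, such as those of markers, are on the TPM scale only. Exons of 5 members overlap another gene on the same strand (Atp5g2 and Atp5o among them) and those of 26 overlap one on the other strand (Uqcrb, Ndufa9, Uqcrc2 and Atp5a1 among them). The strand setting of the counting and its handling of reads shared with near-identical copies are not given in the sources used here, so such reads cannot be told apart. In bulk libraries, fewer cells of a type and less RNA per cell cannot be told apart.

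From the zygote to the 2-cell stage the nuclear respiratory chain genes split into opposed groups within each of complexes I, III, IV and V. On a log2(TPM + 1) scale, with 1 limma model over all 11 libraries and Benjamini-Hochberg adjustment over 21938 genes, 24 members (28.6%) rose and 41 (48.8%) fell in ROSI 2-cell embryos against ROSI zygotes, where 35.6% of all genes tested rose and 32.3% fell. In ICSI 2-cell embryos against ICSI zygotes, 22 (26.2%) rose and 43 (51.2%) fell, where 33.0% of all genes rose and 35.0% fell. The median member differed by -0.26 after ROSI and -0.60 after ICSI, and the median gene by 0.19 and 0.00. A stricter filter, 5 TPM in 2 libraries, left 12910 genes and 78 members. Of these members 24 rose and 39 fell after ROSI, beside 5113 and 5729 genes. After ICSI 21 rose and 41 fell, beside 4857 and 5977 genes. The members' excess of falls over all genes was thus smaller under this filter. Their median, -0.40 after ROSI and -0.62 after ICSI, still lay below that of the genes, -0.10 and -0.22. On the protein-coding scale, 38 of 84 members rose and 34 fell after ROSI, beside 7211 and 4415 of 15463 genes (46.6% and 28.6%). After ICSI 33 of 84 rose and 34 fell, beside 6803 and 4562 genes (44.0% and 29.5%). On that scale the median member differed by 0.20 after ROSI and 0.04 after ICSI, and the median gene by 0.42 and 0.28, so the sign of the members' median depended on the scale and its place below the median gene did not.

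The direction was shared between both kinds of embryo for most members. After ROSI and after ICSI alike 19 members (22.6%) rose and 39 (46.4%) fell, where 29.5% of all genes tested rose and 29.9% fell in both. Of the rest, 14 passed the threshold after 1 kind of injection, 12 after neither, and 0 were called in opposite directions. On both scales, 19 (22.6%) rose and 31 (36.9%) fell in both kinds of embryo, beside 31.0% and 27.9% of the 13914 genes tested on both. The kinds of embryo have no library in common but share 1 estimate of the spread per gene. The scales hold the same values rescaled, so these calls are not independent. At least 4-fold, on the log2(TPM + 1) scale, 15 members (17.9%) fell and 2 (2.38%) rose in both, beside 7.02% and 9.91% of all genes: the 2 were Uqcrc1 and Atp5g1.

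**Figure D1:**
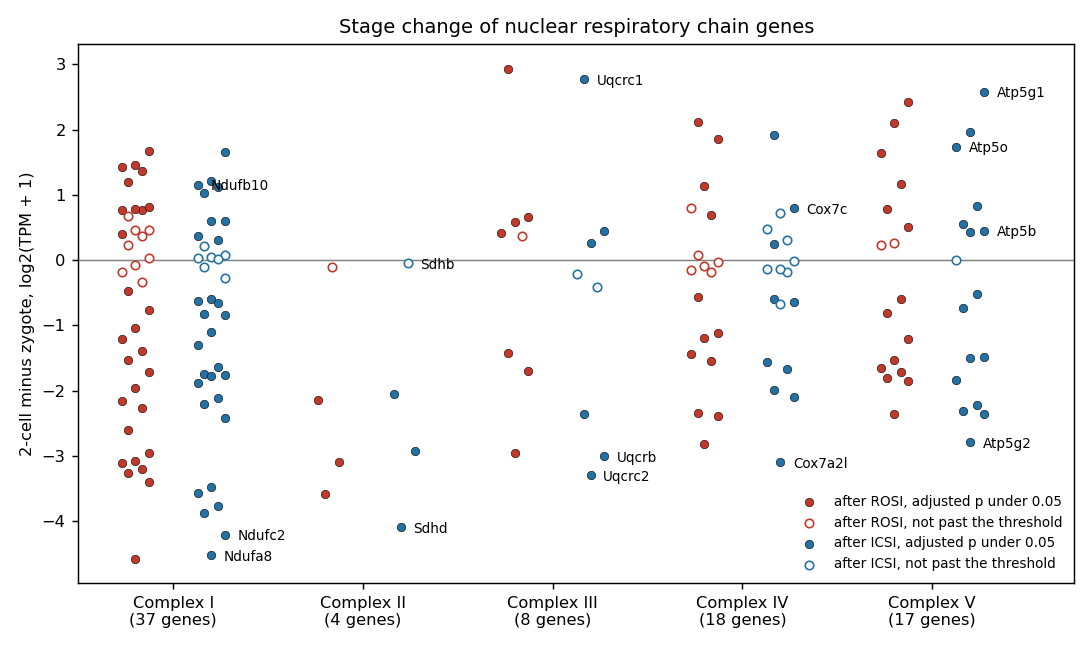
Difference between 2-cell embryos and zygotes on the log2(TPM + 1) scale (vertical axis) for each of the 84 members, grouped by complex on the horizontal axis, after ROSI (red) and after ICSI (blue). Filled points passed an adjusted p of 0.05 and open points did not; Ndufa8 lies lowest, at -4.58 after ROSI and -4.52 after ICSI, and Uqcrc1 highest, at 2.93 and 2.77.

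Complex I had the member that fell furthest. Of its 37 genes, 10 rose and 18 fell after ROSI, and 9 rose and 21 fell after ICSI; on the protein-coding scale, 17 rose and 15 fell after ROSI, and 14 rose and 16 fell after ICSI. Ndufa8, an accessory subunit on the intermembrane side (chr2:36036326-36049406, minus strand, mm10), had 1.40, 1.65 and 4.23 TPM in ROSI 2-cell embryos, against 70.3 and 81.4 TPM in ROSI zygotes. In ICSI embryos it had 0.920, 3.68 and 2.81 TPM at the 2-cell stage, against 75.3, 72.0 and 72.8 TPM in zygotes. All 6 2-cell libraries lay far below all 5 zygote libraries: the mean was 31.3-fold lower after ROSI (log2 difference -4.58 ± 0.38 SE, adjusted p = 1.3e-06) and 29.7-fold lower after ICSI (-4.52 ± 0.34, adjusted p = 5.23e-07).

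Further accessory subunits of complex I fell as well, though less far. Ndufc2, of the membrane arm, had 4.43, 4.31 and 7.08 TPM in ROSI 2-cell embryos, against 45.6 and 56.3 TPM in ROSI zygotes, and 2.45, 1.66 and 2.62 TPM in ICSI 2-cell embryos, against 52.1, 63.4 and 59.9 TPM in ICSI zygotes. Ndufs5, a partner of Ndufa8 on the intermembrane side, had 5.50, 8.97 and 9.32 TPM in ROSI 2-cell embryos, against 70.4 and 119 TPM in ROSI zygotes, and 6.75, 5.62 and 7.74 TPM in ICSI 2-cell embryos, against 84.7, 111 and 117 TPM in ICSI zygotes. For neither gene did any 2-cell library reach a zygote library, and the log2 differences were -3.07 and -4.20 for Ndufc2 and -3.40 and -3.77 for Ndufs5 after ROSI and after ICSI. Ndufa10 (-3.26 and -3.48), Ndufa5 (-3.20 and -3.87), Ndufs4 (-2.96 and -3.56) and Ndufb4 (-3.10 and -1.77) followed, in the same order of injections. Ndufa4, counted here by its name though its protein is now placed in complex IV, fell by 1.97 and fell by 1.75. Ndufs4, a subunit of the arm that faces the matrix, is the gene deleted in a widely used mouse model of complex I deficiency.

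Other accessory subunits of the same complex rose. Ndufb10, of the membrane arm, averaged 33.9 ± 4.21 TPM in ROSI 2-cell embryos and 9.97 ± 1.95 TPM in ROSI zygotes (SD, n = 3 and 2), and 22.8 ± 7.77 TPM in ICSI 2-cell embryos and 9.25 ± 0.736 TPM in ICSI zygotes (SD, n = 3 each). Ndufa11 rose by 1.45 after ROSI and 1.66 after ICSI on the log2 scale, and Ndufa2 by 0.77 and 1.12; without replicate 1 of the ROSI zygotes, the call for Ndufa2 after ROSI was lost (adjusted p = 0.0651). The 29 accessory genes together had 8 that rose and 15 that fell after ROSI, and 8 and 17 after ICSI. On the protein-coding scale 13 rose and 13 fell after ROSI, and 11 and 13 after ICSI.

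The core genes of complex I carry the flavin and the iron-sulphur clusters. Ndufs8, which holds a pair of iron-sulphur clusters, had 35.3, 50.7 and 41.6 TPM in ROSI 2-cell embryos, against 14.3 and 15.7 TPM in ROSI zygotes, and 29.3, 35.7 and 42.4 TPM in ICSI 2-cell embryos, against 14.1, 13.1 and 17.6 TPM in ICSI zygotes. It was higher in every 2-cell library and rose by 1.43 and 1.2. Ndufs3 fell by 0.76 after ROSI and by 1.30 after ICSI. The call for Ndufs3 after ROSI was lost without replicate 2 of the ROSI zygotes (adjusted p = 0.112) or replicate 1 of the ROSI 2-cell libraries (0.0642). Ndufs1 (differences 0.24 and 0.03) and Ndufv1 (0.45 and 0.01), of the module that takes electrons from NADH, passed the threshold after neither injection. Ndufs7 rose after ROSI (0.40, adjusted p = 0.0465), a call lost in 9 of 11 fits that left out 1 library (adjusted p = 0.0507 to 0.151), and had -0.27 after ICSI (adjusted p = 0.126). Ndufv2 had -0.33 after ROSI (adjusted p = 0.151) and fell by 0.66 after ICSI, a call lost on the protein-coding scale.

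Complex II, the only complex built wholly from nuclear genes, had 3 of 4 members that fell after each injection, on both scales. Sdhd, a membrane anchor, had 4.37, 9.23 and 7.4 TPM in ROSI 2-cell embryos, against 86.5 and 96.2 TPM in ROSI zygotes, and 6.43, 6.16 and 3.86 TPM in ICSI 2-cell embryos, against 103, 113 and 108 TPM in ICSI zygotes. Sdha, the flavoprotein that oxidises succinate, had 8.58, 9.83 and 13.2 TPM in ROSI 2-cell embryos, against 92.6 and 99 TPM in ROSI zygotes, and 11.3, 11.9 and 12.1 TPM in ICSI 2-cell embryos, against 97.4, 92.3 and 97.7 TPM in ICSI zygotes. Both stood far below every zygote library, with log2 differences of -3.58 and -4.09 for Sdhd and -3.09 and -2.92 for Sdha after ROSI and after ICSI. Sdhc, the other anchor, fell by 2.15 and 2.05. Sdhb, the iron-sulphur subunit, was low at both stages, between 3.52 and 5.66 TPM in all 11 libraries, and did not pass the threshold (-0.11 and -0.05, adjusted p = 0.628 and 0.804); on the protein-coding scale its difference after ICSI was 0.53 and passed.

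Complex III held the member that rose most beside a core partner that fell. Uqcrc1 (chr9:108936633-108949623, plus strand), a core subunit, had 18.9, 22.3 and 17.5 TPM in ROSI 2-cell embryos, against 2.24 and 1.21 TPM in ROSI zygotes, and 8.11, 12.3 and 14.6 TPM in ICSI 2-cell embryos, against 1.16, 0.636 and 0.688 TPM in ICSI zygotes. Uqcrc2, with which it pairs in the complex, had 6.94, 8.55 and 8.47 TPM in ROSI 2-cell embryos, against 66.9 and 70.0 TPM in ROSI zygotes, and 8.07, 4.93 and 6.74 TPM in ICSI 2-cell embryos, against 79.4, 71.1 and 67.0 TPM in ICSI zygotes. No 2-cell library overlapped a zygote library for either gene. Uqcrc1 rose 11.3-fold after ROSI (log2 difference 2.93 ± 0.25, adjusted p = 1.62e-06) and 14.1-fold after ICSI (2.77 ± 0.22, adjusted p = 9.39e-07), whereas Uqcrc2 was 8.57-fold (-2.95) and 11-fold (-3.30) lower.

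The rest of complex III was mixed. Uqcrfs1, the Rieske iron-sulphur protein, rose by 0.42 after ROSI and 0.26 after ICSI, and Uqcrq, a small subunit, by 0.66 and 0.44. After ICSI, the call for Uqcrfs1 was lost without replicate 2 or 3 of the zygotes or replicate 2 of the 2-cell libraries (adjusted p = 0.0517 to 0.0869). The call for Uqcrq was lost without replicate 1 of the ICSI zygotes or replicate 3 of the ICSI 2-cell libraries (0.0800 and 0.0902). Uqcrb, which lies beside a ubiquinone site, fell by 1.42 after ROSI and by 3.0 after ICSI, and Uqcrh, the hinge protein that touches cytochrome c, by 1.70 and 2.35. Uqcr10 had 0.38 and -0.22 and passed after neither injection. In all, 4 of the 8 members rose and 3 fell after ROSI, and 3 rose and 3 fell after ICSI; on the protein-coding scale, 5 rose and 3 fell, and 4 rose and 3 fell.

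**Figure D2:**
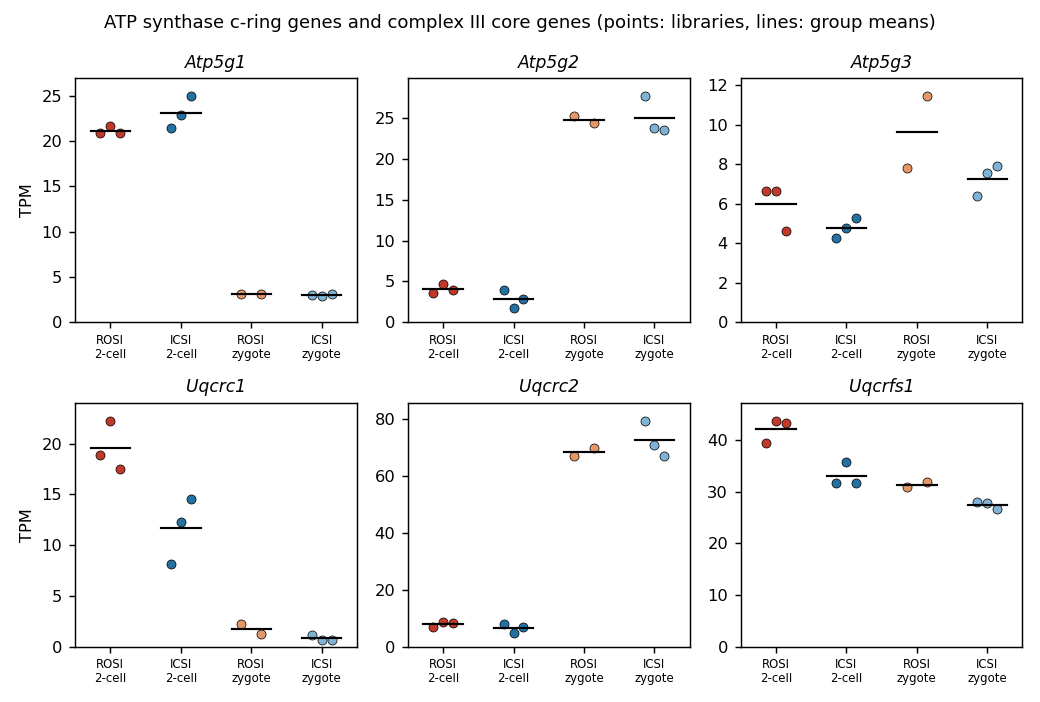
TPM (vertical axes, linear, from 0) in each library of the 4 groups (horizontal axes) for the 3 genes of the ATP synthase c ring and the 3 core genes of complex III; points are libraries and lines group means. Atp5g1 and Uqcrc1 are higher in all 6 2-cell libraries than in all 5 zygote libraries, Atp5g2 and Uqcrc2 are lower in all 6, and Uqcrfs1 moves least.

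Complex IV had the highest summed level and, on the TPM scale, the fewest calls for its size. Of 18 members, 4 rose and 8 fell after ROSI and 3 rose and 7 fell after ICSI; on the protein-coding scale, 8 rose and 7 fell, and 6 rose and 5 fell. Cox8a, a small membrane subunit and the most abundant of the 84 genes at a mean of 294 TPM, rose by 0.25 after ICSI (adjusted p = 0.0156) and had -0.15 after ROSI (adjusted p = 0.143), or 0.46 on the protein-coding scale. Its call after ICSI was lost without replicate 3 of the zygotes or of the 2-cell libraries (adjusted p = 0.0532 and 0.0588). Among the ubiquitous subunits Cox5a, Cox5b and Cox6c fell after both injections, by 1.19, 1.54 and 1.44 after ROSI and by 1.99, 1.66 and 1.57 after ICSI. Cox7c rose by 1.85 after ROSI and 0.80 after ICSI, where replicate 1 of the zygotes or of the 2-cell libraries decided the call (adjusted p = 0.0674 and 0.0646 without them). Cox4i1, one of the first subunits to assemble, had 0.08 after ROSI (adjusted p = 0.726) and fell by 0.64 after ICSI, though not on the protein-coding scale. Cox7a2l was classed here as a factor for supercomplexes of complexes III and IV, and its function in this strain was not tested. It had 32.2, 26.0 and 25.6 TPM in ROSI 2-cell embryos, against 144 and 154 TPM in ROSI zygotes, and 21.6, 21.7 and 17.8 TPM in ICSI 2-cell embryos, against 182, 183 and 179 TPM in ICSI zygotes. It fell by 2.38 after ROSI and fell by 3.10 after ICSI, with every 2-cell library below every zygote library.

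In complex V 6 of 17 members rose and 9 fell after ROSI, and 7 rose and 9 fell after ICSI; on the protein-coding scale, 8 rose and 6 fell, and 8 rose and 7 fell. Different genes held most of the TPM of the c ring at the 2 stages, a share that depends on the exon lengths used. The c ring is the rotor of the ATP synthase in the membrane, and Atp5g1, Atp5g2 and Atp5g3 encode precursors of its same subunit c. Atp5g1 had 20.9, 21.7 and 20.8 TPM in ROSI 2-cell embryos, against 3.14 and 3.15 TPM in ROSI zygotes, and 21.4, 22.9 and 24.9 TPM in ICSI 2-cell embryos, against 3.04, 2.93 and 3.13 TPM in ICSI zygotes. Atp5g2 had 3.60, 4.67 and 3.91 TPM in ROSI 2-cell embryos, against 25.3 and 24.4 TPM in ROSI zygotes, and 3.94, 1.74 and 2.88 TPM in ICSI 2-cell embryos, against 27.7, 23.8 and 23.5 TPM in ICSI zygotes. The order of both genes was therefore opposite at the 2 stages, in every library. Atp5g1 rose 6.72-fold after ROSI (log2 difference 2.42 ± 0.11, adjusted p = 1.54e-08) and 7.60-fold after ICSI (2.57 ± 0.10, adjusted p = 3.6e-09), and Atp5g2 was 6.12-fold (-2.36 ± 0.21) and 8.75-fold (-2.79 ± 0.19) lower. As a share of the 3 genes' TPM, Atp5g1 made up 67.9% in ROSI and 75.2% in ICSI 2-cell embryos, against 8.38% in ROSI and 8.61% in ICSI zygotes. Atp5g2 made up 13% and 9.32% at the 2-cell stage, against 66.2% and 70.7% in zygotes. Atp5g3 made up 19.1% and 15.5%, against 25.4% and 20.7%, and fell by 0.60 and 0.52, a difference that was -0.06 and 0.03 on the protein-coding scale. The Atp5g3 calls were lost without any 1 of 5 libraries, with adjusted p of 0.0581 and 0.210 after ROSI (replicate 3 of the 2-cell libraries and 2 of the zygotes) and 0.0628 to 0.0732 after ICSI (replicate 2 or 3 of the zygotes and 1 of the 2-cell libraries).

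Among the other parts of the ATP synthase, the stalk that holds the head still had 3 genes that rose and 1 that fell after each injection. Atp5o, which caps the head, rose by 2.10 and 1.74, Atp5f1 by 0.78 and 0.55 and Atp5j by 0.51 and 0.43, while Atp5h fell by 1.71 and 2.21, in ROSI and ICSI embryos in that order. All 3 small membrane genes, Atp5j2, Atp5k and Atp5l, fell after both injections, though only 1 of them did after ROSI and 2 after ICSI on the protein-coding scale. After ROSI, Atp5j lost its call without replicate 1 of the zygotes (adjusted p = 0.147), and Atp5k and Atp5l lost theirs without replicate 2 of the zygotes (0.321 and 0.125) or a 2-cell library (0.0599 without replicate 2 and 0.0510 without replicate 3). After ICSI, Atp5j was lost in 3 of 11 such fits (replicates 1 and 2 of the zygotes and 3 of the 2-cell libraries, 0.0553 to 0.0837) and Atp5l in 2 (replicates 2 and 3 of the zygotes, 0.0645 and 0.0525). In the catalytic head Atp5a1 fell (by 1.21 and 1.5) and so did Atp5e (by 1.81 and 2.36), Atp5d rose (by 1.17 and 0.83), and Atp5c1 passed after neither injection (0.23 and 0.00). Atp5b, the catalytic subunit, averaged 126 ± 17.0 TPM in ROSI 2-cell embryos and 104 ± 1.67 TPM in ROSI zygotes (SD, n = 3 and 2; 0.27, adjusted p = 0.0608). It rose by 0.45 after ICSI. Atp5s rose and Atp5sl fell after both; neither is a subunit, and Atp5sl is an older name of Dmac2, a factor for complex I assembly.

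Promoters are shown for the pair of c-ring genes that changed places and for the members of complexes III and I with the largest rise and fall. Each runs 250 bases before to 50 after the RefSeq start on GRCm38.p6, 5' to 3' on the gene's strand, and capitals mark matches on either strand to the NRF1 motif GCGCATGCG (overlapping matches form 1 run) or the SP motif GGGCGG. They lie at chr11:96075582-96075881 (minus strand, Atp5g1), chr15:102670998-102671297 (minus strand, Atp5g2, inside the span of the annotated gene), chr9:108936398-108936697 (plus strand, Uqcrc1) and chr2:36049289-36049588 (minus strand, Ndufa8).
Atp5g1: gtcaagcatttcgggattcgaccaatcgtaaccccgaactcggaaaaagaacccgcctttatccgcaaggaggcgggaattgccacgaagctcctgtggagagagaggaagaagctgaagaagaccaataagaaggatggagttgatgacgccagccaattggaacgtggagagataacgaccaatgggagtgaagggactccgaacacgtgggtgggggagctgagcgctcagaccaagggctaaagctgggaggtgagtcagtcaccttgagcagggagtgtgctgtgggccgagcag
Atp5g2: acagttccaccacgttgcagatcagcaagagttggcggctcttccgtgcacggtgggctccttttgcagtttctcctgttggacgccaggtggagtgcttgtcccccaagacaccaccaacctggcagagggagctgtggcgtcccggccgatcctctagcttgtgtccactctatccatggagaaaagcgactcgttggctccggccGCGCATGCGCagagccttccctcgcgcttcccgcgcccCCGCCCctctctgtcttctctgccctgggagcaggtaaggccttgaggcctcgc
Uqcrc1: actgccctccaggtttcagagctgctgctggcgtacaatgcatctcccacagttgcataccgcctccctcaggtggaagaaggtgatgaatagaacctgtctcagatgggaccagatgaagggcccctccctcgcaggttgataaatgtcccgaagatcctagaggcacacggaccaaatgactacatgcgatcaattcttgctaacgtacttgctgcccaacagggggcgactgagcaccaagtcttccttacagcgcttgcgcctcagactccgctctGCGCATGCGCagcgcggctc
Ndufa8: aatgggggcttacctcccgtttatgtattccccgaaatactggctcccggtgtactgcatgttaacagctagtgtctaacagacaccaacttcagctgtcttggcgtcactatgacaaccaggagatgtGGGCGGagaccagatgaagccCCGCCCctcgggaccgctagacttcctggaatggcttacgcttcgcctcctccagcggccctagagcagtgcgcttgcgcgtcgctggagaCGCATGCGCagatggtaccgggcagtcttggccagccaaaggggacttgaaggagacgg
The Atp5g1 window held none of the motifs searched, Atp5g2 and Ndufa8 held NRF1 and SP matches, and Uqcrc1 held an NRF1 match after its start. A match to NRF1, a factor known for driving respiratory chain genes, thus stood in a window of a gene that rose and in windows of genes that fell.

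Of the 84 members, 69 matched a RefSeq promoter by symbol, and motifs are counted on those. NRF1 (GCGCATGCG) was in 8 (11.6%, against 1.95% of 27025 genes), the ETS motif CCGGAAG, bound by GABP, in 16 (23.2%, against 9.93%), YY1 (AAGATGGC) in 11 (15.9%, against 3.19%), the SP motif in 28 (40.6%, against 38.2%) and the ERR motif TCAAGGTCA in 2 (2.90%, against 0.466%). Split by stage change, on the TPM scale, NRF1 was in 2 of 17 members that rose after both injections, in 4 of 31 that fell after both and in 2 of the 21 others. For YY1 these were 3 of 17, 5 of 31 and 3 of 21, and for ETS 2 of 17, 7 of 31 and 7 of 21. Letters in a window are a description and no evidence of binding.

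Summed over complexes, members were lower in 2-cell embryos on the TPM scale, with complex II furthest apart. Complex I summed to 506 ± 34.6 TPM in ROSI and 476 ± 53.1 TPM in ICSI 2-cell embryos, against 1004 ± 208 TPM in ROSI and 1056 ± 111 TPM in ICSI zygotes (SD, n = 3, 3, 2 and 3, also below). Complex II summed to 26.0 ± 5.25 and 26.4 ± 2.07 TPM in ROSI and ICSI 2-cell embryos, against 215 ± 17.4 and 231 ± 6.15 TPM in ROSI and ICSI zygotes. For complexes I to V alike, no 2-cell library reached a zygote library on the TPM scale. Complex IV summed to 726 ± 37.6 and 811 ± 24.4 TPM, against 1126 ± 152 and 1221 ± 94.8 TPM, and complex V to 536 ± 32.9 and 499 ± 37.2 TPM, against 904 ± 175 and 944 ± 131 TPM, in the same order of groups. On the protein-coding scale complex II still had 61.9 and 60.4 in ROSI and ICSI 2-cell embryos, against 336 in ROSI and 336 in ICSI zygotes, while complex IV had 1737 and 1854, against 1758 and 1780. The mean of complex III was higher on that scale in ROSI 2-cell embryos, at 634, against 541 in ROSI zygotes. The libraries overlap, at 569 to 683, against 468 (replicate 1) and 615. After ICSI it had 456 in 2-cell embryos, against 552 in zygotes, where 424 to 492 and 465 to 599 overlap as well. Complexes I and V stayed lower in the mean, at 1211 and 1281 in ROSI and 1084 and 1139 in ICSI 2-cell embryos, against 1568 and 1413 in ROSI and 1539 and 1376 in ICSI zygotes. Complex I reached at most 1235 in a 2-cell library, against at least 1329 in a zygote library. For complex V the ranges, 1102 to 1305 and 1163 to 1614, overlap. On that scale the complex IV sums of all 6 2-cell libraries, 1673 to 1924, lay within those of the zygotes, 1579.9 to 1936. Complexes I and II remained below the zygotes in every 2-cell library.

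**Figure D3:**
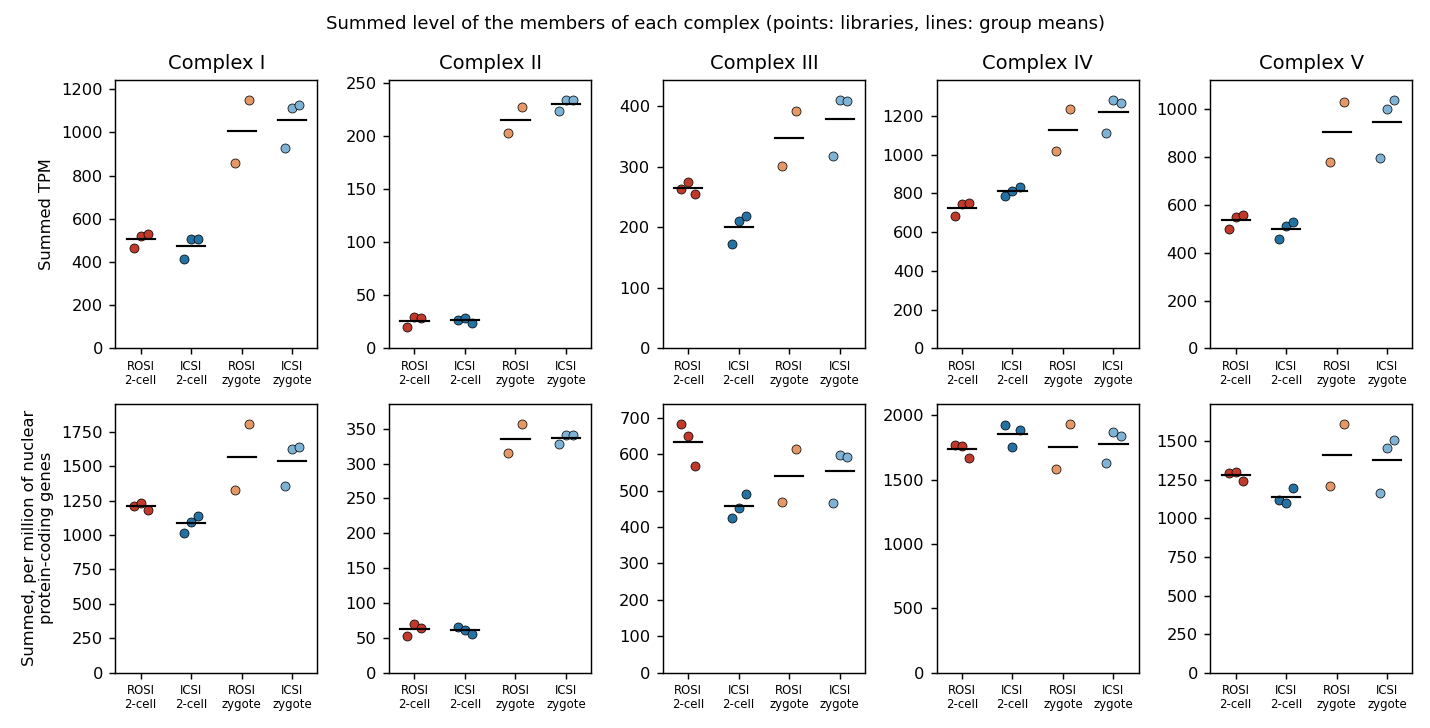
Summed level of the members of each complex in every library (points) with group means (lines), from 0 on linear axes, in TPM (upper row) and on the protein-coding scale (lower row). In the upper row all complexes, and in the lower row complexes I and II, are lower in all 6 2-cell libraries than in all 5 zygote libraries. Complex III is higher in the 3 ROSI than in the 3 ICSI 2-cell libraries in both rows, and complexes I and V are so in the lower row only.

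At the 2-cell stage, ROSI embryos had more transcript of several members than ICSI embryos and less of a few. Of the 84, 8 (9.52%) were higher and 3 (3.57%) lower in ROSI 2-cell embryos, where 4.93% and 4.58% of all genes tested were. By complex, 3 were higher and 1 lower in complex I, 2 higher in complex III, 2 higher and 2 lower in complex IV, 1 higher in complex V, and complex II had 0 calls (limma; 0 at an unadjusted p under 0.05). The median member differed by 0.19 and the median gene by 0.04. On the protein-coding scale, 15 of the 84 members were higher and 4 lower, beside 2513 and 1207 of 15463 genes (16.3% and 7.81%). The share of higher members was thus close to that of all genes on this scale. All 3 ROSI libraries lay above all 3 ICSI libraries for 22 members (26.2%, against 15.4% of genes) and below them for 6 (7.14%, against 11.8%).

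Uqcrb of complex III differed most. It had 27.5, 29.4 and 25.8 TPM (260, 254 and 186 reads) in ROSI 2-cell embryos, against 5.43, 11.1 and 11.3 TPM (18, 117 and 135 reads) in ICSI 2-cell embryos. The groups did not overlap, the lowest ICSI library being also the shallowest, and the mean was 2.97-fold higher in ROSI embryos (log2 difference 1.53 ± 0.24, adjusted p = 0.00681). In zygotes Uqcrb had 66.1 and 86.2 TPM after ROSI, against 62.2, 89.6 and 85.1 TPM after ICSI, which overlap. Its exons overlap those of Gm10767 on the other strand. All 8 complex III members had positive differences, from 0.02 for Uqcrq to 1.53, and Uqcrfs1, at 39.5, 43.8 and 43.4 TPM in ROSI, against 31.8, 35.7 and 31.7 TPM in ICSI 2-cell embryos, also passed (0.34, adjusted p = 0.0351). The summed level of complex III was 264 ± 9.71 TPM in ROSI and 200 ± 23.9 TPM in ICSI 2-cell embryos (SD, n = 3 each), with the lowest ROSI library at 255 and the highest ICSI library at 218 TPM. In zygotes it was 347 ± 63.9 TPM in ROSI and 379 ± 53.0 TPM in ICSI (SD, n = 2 and 3), which overlap. Complex III was not alone in this on the protein-coding scale, where its 2-cell sums were 569 to 683 in ROSI and 424 to 492 in ICSI. On it complex I had 1184 to 1235 in ROSI and 1015 to 1141 in ICSI 2-cell embryos. Complex V had 1245 to 1305 and 1102 to 1195, again without overlap.

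In complex I the genes higher in ROSI 2-cell embryos on the TPM scale were accessory subunits. Ndufc2, the gene of the membrane arm that fell with the stage, had 4.43, 4.31 and 7.08 TPM in ROSI, against 2.45, 1.66 and 2.62 TPM in ICSI 2-cell embryos, 2.35-fold higher (0.94 ± 0.19, adjusted p = 0.0157). Ndufa9, next to the ubiquinone site, had 11.9, 13.6 and 13.5 TPM in ROSI, against 7.16, 8.25 and 8.12 TPM in ICSI (0.66 ± 0.14, adjusted p = 0.0196). Ndufa12 had 9.74, 6.54 and 10.4 TPM in ROSI, against 2.97, 4.0 and 4.44 TPM in ICSI (1.03 ± 0.24, adjusted p = 0.0279). The groups did not overlap for any of these 3 genes. Ndufb4, of the far end of the membrane arm, went the other way, with 0.793, 0.867 and 2.28 TPM in ROSI, against 3.84, 3.99 and 3.57 TPM in ICSI 2-cell embryos (-1.11 ± 0.27, adjusted p = 0.0299). Its values rest on 16, 16 and 36 reads in ROSI and 28, 92 and 93 reads in ICSI libraries. No core gene of complex I passed on the TPM scale: 6 of the 7 had positive differences, up to 0.51 for Ndufs7 (adjusted p = 0.0534). On the protein-coding scale 1 core gene was higher, and of all 37 complex I genes 6 were higher and 2 lower, beside 16.3% and 7.81% of genes.

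Complex IV had calls in both directions, and its most abundant gene was among those lower in ROSI. Cox8a had 232, 251 and 269 TPM in ROSI, against 339, 348 and 361 TPM in ICSI 2-cell embryos, 1.39-fold lower with no overlap (-0.48 ± 0.08, adjusted p = 0.00754). Cox7b, an X-linked subunit (chrX:106015700-106022450), had 42.5, 30.8 and 33.5 TPM in ROSI, against 61.1, 57.7 and 55.5 TPM in ICSI (-0.70 ± 0.17, adjusted p = 0.0332). Cox7c had 24.9, 27.0 and 20.1 TPM in ROSI, against 14.5, 10.4 and 9.51 TPM in ICSI (1.02 ± 0.25, adjusted p = 0.0337). Here too no ROSI value lay within the ICSI range. Cox7a2l was higher by 0.44 (adjusted p = 0.0357), and in complex V Atp5a1, the alpha subunit, was higher by 0.31 (adjusted p = 0.0492), at 97.4, 104 and 112 TPM in ROSI, against 77.2, 86.4 and 88.4 TPM in ICSI. The summed TPM of complex IV, in which Cox8a weighs most, was lower in ROSI, 682 to 750 TPM, against 786 to 835 TPM in ICSI. Most of its members were not lower: 12 of 18 had positive differences, and the median was 0.11. On the protein-coding scale the ranges of the sum, 1673 to 1773 and 1754 to 1924, overlap.

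**Figure D4:**
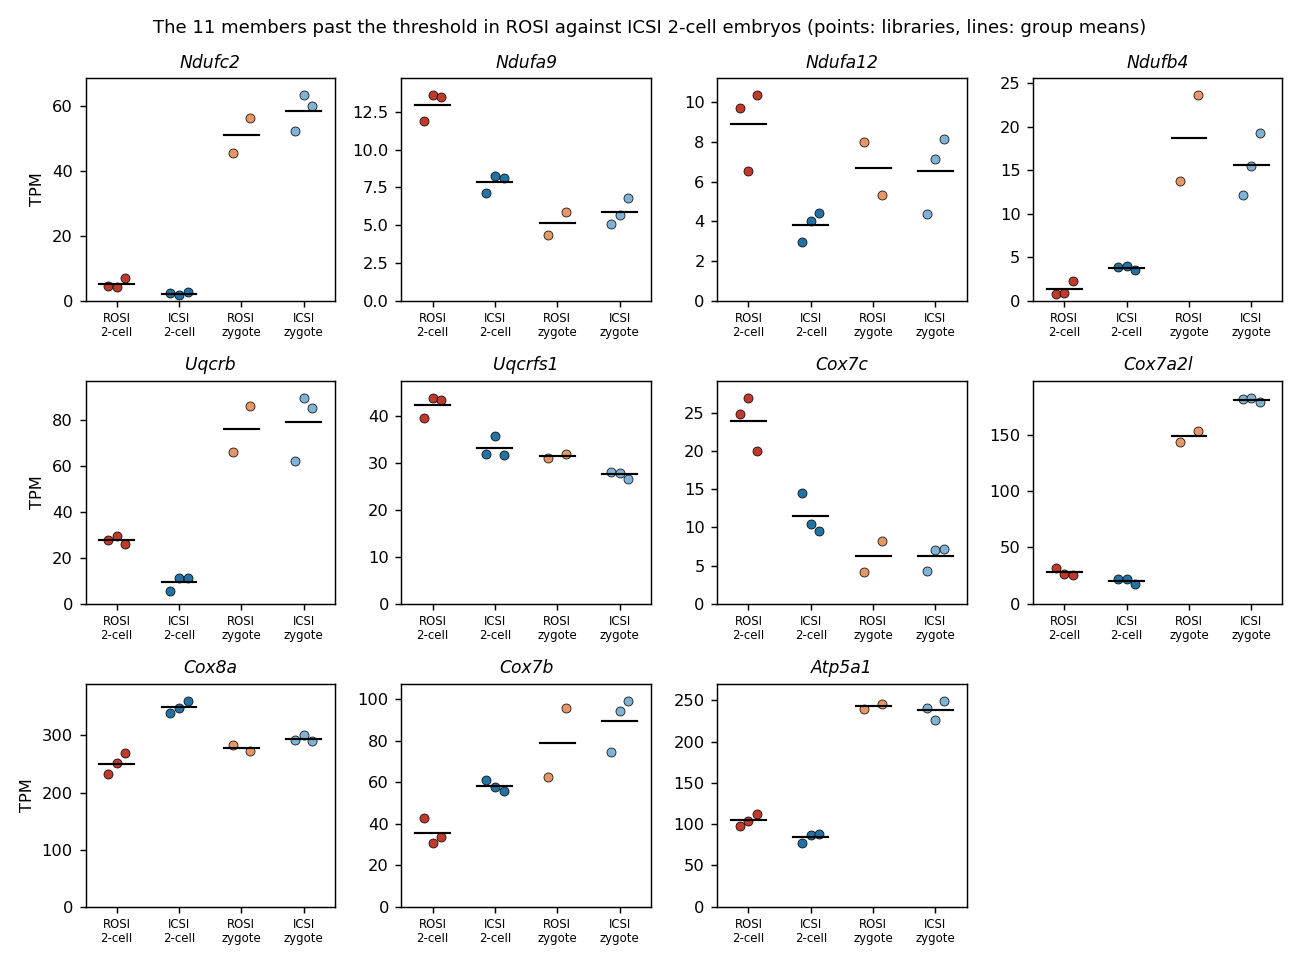
TPM (vertical axes, linear, from 0) in each library of the 4 groups (horizontal axes) for the 11 members past an adjusted p of 0.05 between ROSI and ICSI 2-cell embryos; points are libraries and lines group means. For 8 genes, such as Uqcrb, all 3 ROSI 2-cell libraries lie above all 3 ICSI 2-cell libraries, and for Ndufb4, Cox8a and Cox7b they lie below.

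These calls depended on the spread borrowed from all 4 groups: fitting the 2-cell libraries alone gave 0 higher and 0 lower, and leaving out 1 library at a time gave 3 to 6 higher and 1 to 3 lower. The count of higher members was 3 without replicate 2 of the ROSI or replicate 1 or 2 of the ICSI 2-cell libraries, 4 without replicate 2 or 3 of the ICSI zygotes, and 5 without replicate 1 of the ROSI 2-cell libraries or either ROSI zygote library. The count of lower members was 1 without replicate 2 of the ROSI 2-cell libraries, any ICSI 2-cell library or replicate 2 of the ICSI zygotes. Uqcrb and Cox8a were each lost in 1 of 20 alternatives and Ndufc2 in 2 of 20, whereas Cox7a2l and Atp5a1 were each lost in 14. Of the 11 fits that left out 1 library, 1 lost Ndufc2 (without replicate 2 of the ICSI 2-cell libraries, adjusted p = 0.0503), 2 lost Ndufa9 (without replicate 2 of the ROSI or replicate 1 of the ICSI 2-cell libraries, 0.0647 and 0.0576), 4 lost Ndufa12 (up to 0.0845), 8 lost Uqcrfs1 (up to 0.106), and 6 each lost Ndufb4, Cox7b and Cox7c (up to 0.0963, 0.108 and 0.104). Other genes moved in the same contrast: of the stage markers, 7 of 10 2-cell genes and 5 of 12 oocyte genes were lower in ROSI 2-cell embryos, with the sums given above. Of 15 round spermatid genes tested, of 18 listed, 7 were higher and 1 lower, their sum being 89.4 to 109 TPM in ROSI and 83.6 to 93.5 TPM in ICSI, with 0 to 3 and 5 to 8 of the genes at 0. Cumulus cell genes summed to 46.1 to 53.2 TPM in ROSI and 30.5 to 44.2 TPM in ICSI 2-cell embryos. Their zygote sums were far lower, 5.23 to 5.53 TPM in ROSI and 4.58 to 5.74 TPM in ICSI. Of 4 tested of 12 listed, 0 passed between ROSI and ICSI 2-cell embryos (limma, 2 at an unadjusted p under 0.05). From zygote to 2-cell stage, on the protein-coding scale, 2 of these 4 rose and 1 fell after each injection. Amhr2 rose by 6.58 after ROSI and 5.82 after ICSI, or by 5.39 and 4.76 on the TPM scale, and made up most of the 2-cell sums. Of the 12 listed genes, 2 to 5 were at 0 in ROSI and 3 to 6 in ICSI 2-cell libraries. The part of these ROSI against ICSI differences in the members' calls was not tested.

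The change from zygote to 2-cell stage was also compared between ROSI and ICSI in a single contrast. No member passed on the TPM scale (limma, 0 higher and 0 lower; 17 at an unadjusted p under 0.05), where 0.0137% and 0.00456% of genes did; the smallest adjusted p was 0.110, shared by Uqcrb (difference 1.58 ± 0.36) and Cox7a2l (0.72 ± 0.17). The median was 0.22 over the members and 0.10 over all genes. On the protein-coding scale, 4 of 84 members were higher (Uqcrb, Ndufc2, Ndufa9 and Atp5j2) and 2 lower (Ndufb4 and Cox8a). Beside them stood 425 and 199 of 15463 genes (2.75% and 1.29%).

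In zygotes no member passed between ROSI and ICSI (limma, 0 higher and 0 lower; 6 at an unadjusted p under 0.05), beside 0.114% and 0.0319% of genes, or 0.608% and 0.194% on the protein-coding scale, where 0 members passed as well. The median member differed by -0.07 and the median gene by -0.06. The ROSI libraries lay above all ICSI libraries for 9 members (10.7%, against 6.97% of genes) and below them for 12 (14.3%, against 19.4%).

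The smallest p belonged to Cox8c, an isoform of the complex IV subunit Cox8 known from testis (chr12:102899316-102900526, plus strand). It had 11.1 and 7.81 TPM (51 and 105 reads) in ROSI zygotes, against 1.55, 1.42 and 1.80 TPM (18, 16 and 18 reads) in ICSI zygotes. Both ROSI values lay above all ICSI values, 5.94-fold in the mean, with a log2 difference of 2.00 ± 0.42 that did not pass (adjusted p = 0.115); with a pseudocount of 5 it did. At the 2-cell stage the gene had 1.75, 0.213 and 1.53 TPM in ROSI, against 0, 0.700 and 1.54 TPM in ICSI. Round spermatid markers stood beside it in the same zygotes: 7 of 15 tested were higher and 0 lower in ROSI, their sum was 324 and 213 TPM in ROSI, against 144, 153 and 149 TPM in ICSI zygotes, and 0 of the 18 genes were at 0 in ROSI, against 2 to 4 in ICSI. Their part in the Cox8c values was not tested.

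No other isoform of a restricted tissue had an unadjusted p under 0.05 between ROSI and ICSI zygotes. Cox6b2, a testis isoform, was abundant in every group, at 43.3 to 62.2 TPM in 2-cell embryos and 52.7 to 77.9 TPM in zygotes, beside 33.7 to 46.4 and 27.3 to 57.1 TPM of the ubiquitous Cox6b1. Cox6a2, a heart and muscle isoform, fell by 2.81 after ROSI and 2.09 after ICSI, and Cox7a1, also of heart and muscle, rose by 2.12 and 1.92, reaching 10.4 TPM. Cox4i2, a lung isoform, rose by 1.14 after ROSI, a call lost without replicate 1 of the ROSI zygotes (adjusted p = 0.0893), and had -0.02 after ICSI. Cox7b2 and Cox8b were the lowest of the 84, with means of 0.788 and 0.974 TPM, and passed in no comparison. Ndufa4l2, a hypoxia-induced relative of Ndufa4, fell by 2.16 and 1.88, with at most 5.39 TPM in zygotes.

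**Figure D5:**
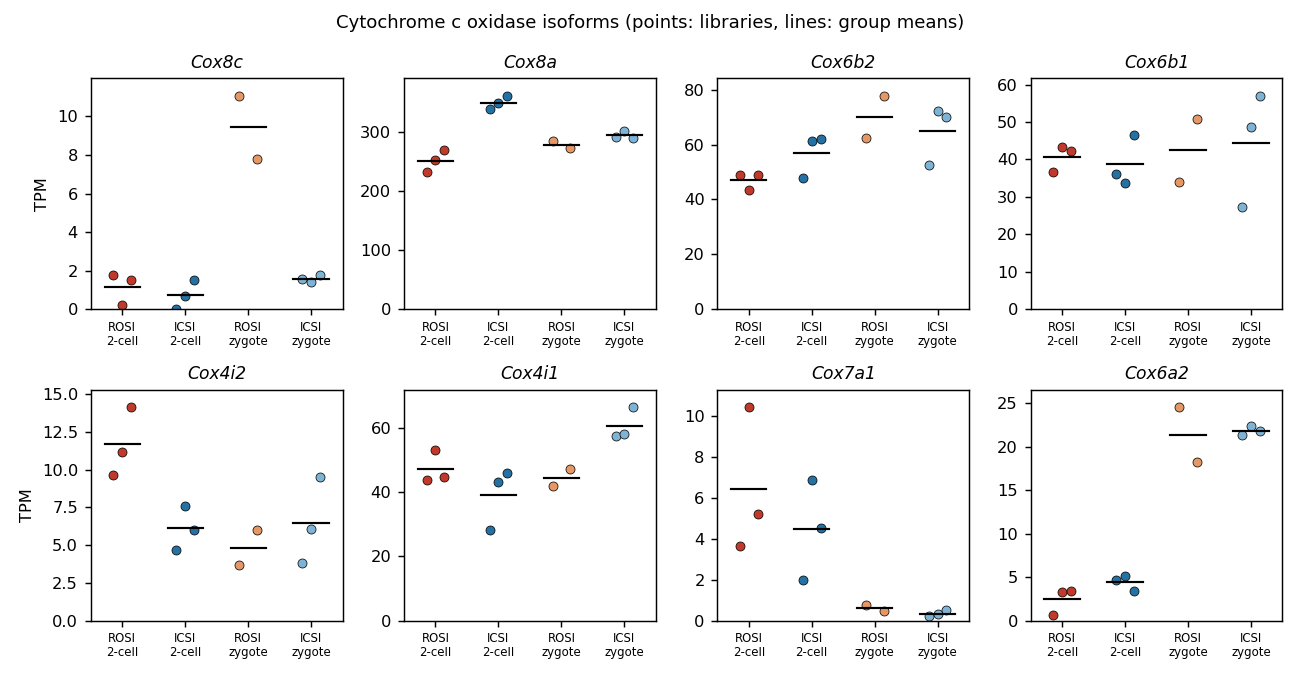
TPM (vertical axes, linear, from 0) in each library of the 4 groups (horizontal axes) for tissue-restricted cytochrome c oxidase isoforms and ubiquitous partners; points are libraries and lines group means. Cox8c is highest in the 2 ROSI zygote libraries, at 11.1 and 7.81 TPM, and Cox6b2 lies between 43.3 and 77.9 TPM in all 11 libraries.

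Zygote libraries of the same group were not alike. In replicate 1 of the ROSI and of the ICSI zygotes small nuclear and nucleolar RNA made up 0.611% and 0.572% of TPM, and in the other 3 it made up 1.64% to 2.58%. Against those 3, both libraries were lower for 39 members (46.4%, against 10.2% of genes tested) and higher for 3 (3.57%, against 20.6%), with a median difference of -0.25 for members and 0.05 for all genes. Atp5k, a small membrane subunit, had 52.9 TPM in the ROSI and 56.0 TPM in the ICSI library poor in small RNA, against 198, 156 and 153 TPM in the others. Within the poor libraries the median ROSI minus ICSI difference of members was -0.04, and within the others 0.04. For Cox8c it was 2.25 and 1.76. What sets these libraries apart was not tested.

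Lists of related genes gave context from the same fit. Of 44 assembly factors tested, of 50 listed, 15 (34.1%) rose and 17 (38.6%) fell after ROSI, beside 35.6% and 32.3% of genes. After ICSI 13 (29.5%) rose and 18 (40.9%) fell, beside 33.0% and 35.0% of genes. On the protein-coding scale 22 of 44 rose and 13 fell after ROSI, beside 46.6% and 28.6% of genes. On that scale 21 rose and 17 fell after ICSI, beside 44.0% and 29.5% of genes. Uqcc3, needed for complex III assembly, had 62.9, 88.5 and 73.8 TPM in ROSI 2-cell embryos, against 2.88 and 1.65 TPM in ROSI zygotes, and 53.2, 67.1 and 68.7 TPM in ICSI 2-cell embryos, against 2.99, 0.625 and 1.09 TPM in ICSI zygotes. It was thus far above the zygote values in every 2-cell library (4.55 and 4.74). All 3 complex II factors tested fell after both injections, Sdhaf4 by 4.28 and 3.64, as did 3 of the 4 complex II subunits. In ROSI against ICSI 2-cell embryos 4 assembly factors (9.09%) were higher and 1 (2.27%) lower, beside 4.93% and 4.58% of genes. The higher ones were Ndufaf6 (0.68), Acad9 (0.71), Ecsit (0.64) and Uqcc1 (0.39), the first 3 of them for complex I. Cox10, which makes haem for complex IV, was lower by 0.58. On the protein-coding scale 12 of the 44 were higher and 1 lower, beside 16.3% and 7.81% of genes.

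Subunits outside the naming rule and regulators of the chain moved with the stage as well. Cyc1, the cytochrome c1 subunit of complex III, rose by 1.43 and 1.74, and Ndufab1, the acyl carrier of complex I, fell by 2.55 and 2.59; of 6 such genes 2 rose and 3 fell after each injection, or 3 and 3 on the protein-coding scale. Of 16 regulators tested, 11 (68.8%) rose and 4 (25.0%) fell after each injection. Beside them 35.6% and 32.3% of all genes did after ROSI, and 33.0% and 35.0% after ICSI. On the protein-coding scale 12 rose and 3 fell after each, beside 46.6% and 28.6% of genes after ROSI and 44.0% and 29.5% after ICSI. Gabpa, the DNA-binding subunit of GABP, had 128, 159 and 174 TPM in ROSI 2-cell embryos, against 2.38 and 1.79 TPM in ROSI zygotes, and 131, 177 and 169 TPM in ICSI 2-cell embryos, against 3.39, 2.36 and 2.14 TPM in ICSI zygotes. Yy1 rose by 3.81 and 3.58, whereas Tfb1m, a mitochondrial rRNA methyltransferase, fell by 3.58 and 3.15. Nrf1 fell by 0.44 and 0.82 on the TPM scale but had 0.16 and -0.19 on the protein-coding scale and did not pass there. In ROSI against ICSI 2-cell embryos 3 of the 16 (18.8%) were higher and 0 lower, beside 4.93% and 4.58% of genes. Tfam, which packages and transcribes mitochondrial DNA, was higher by 0.74, Tefm, a mitochondrial elongation factor, by 0.61 and Twnk, the mitochondrial helicase, by 0.48. On the protein-coding scale 5 were higher and 1 lower (Tfb1m, -0.29), beside 16.3% and 7.81% of genes.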

How the data were processed

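RNA-seq libraries of 11 mouse embryo samples in 4 groups were used; per the labels' protocols they were made from 1 ng of total RNA, extracted with ISOGEN II, with a stranded SMART-seq kit. The deposited values are TPM that the authors computed per gene, 1 column per library; fastp, Bowtie2, STAR 2.7.4a, featureCounts and mm10 are named in the submitters' processing notes, without roles or order, and annotation, strand setting and filters are not given in the sources used here. Reads per gene were recovered by scaling TPM times GENCODE M21 exon length; 85.1% to 86.7% of values per library came within 0.01 of whole numbers. They describe depth, which limits precision, and were not tested.

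A gene was tested where 2 or more libraries had 1 TPM or more, which left 21938 genes, and tests were run on log2(TPM + 1) with limma 3.58.1 in R 4.3.3 (lmFit, contrasts.fit, eBayes with a trend), with the 4 group means of all 11 libraries, 5 contrasts and 2-sided p-values adjusted by Benjamini-Hochberg at 0.05. A fold change on that scale understates the change of low genes, and folds in the text are ratios of mean TPM. The procedure was tested on simulated data. Python 3.11.15 with pandas 2.3.3, numpy 2.4.6 and matplotlib 3.10.9 made the sums and figures. Promoters came from RefSeq on GRCm38.p6. Named were, per contrast, up to 8 members per direction with the largest difference among those past the threshold, the 3 most abundant per complex, core subunits, isoforms of restricted tissues, and up to 4 genes per list; 1 named member is not reported here. Members, lists and alternatives were chosen with earlier results of these data known. Replicate numbers were checked for pairing: same-numbered 2-cell libraries of ROSI and ICSI had deviations that correlated at 0.024, -0.003 and -0.015, and zygote libraries 1 and 2 at 0.330 and 0.215, where those of 2 ROSI libraries mirror each other; since not every pair was over 0.1, no block was used. Alternatives were other pseudocounts, filters and scalings, no trend, a replicate block, only the groups compared, and each library left out.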

Additional observations from a re-analysis of the deposited data

How the results depend on the processing

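Counts of members called are given as higher and lower. In ROSI against ICSI 2-cell embryos, 8 and 3 became 4 and 1 with no filter on low values, 6 and 5 with median-ratio scaling, 5 higher without the trend, 15 and 4 on the protein-coding scale, and 0 and 0 with only these 2 groups fitted; leaving out 1 library at a time gave 3 to 6 and 1 to 3. In 2-cell embryos against zygotes after ROSI, 24 and 41 became 38 and 34 on the protein-coding scale, and 18 to 24 and 32 to 41 with 1 library left out. After ICSI, 22 and 43 became 33 and 34, and 17 to 22 and 39 to 45. The difference between these changes, with 0 and 0, had 0 and 1 with median-ratio scaling and 4 and 2 on the protein-coding scale. In zygotes, a pseudocount of 5 gave 1 higher. The protein-coding scale was chosen after seeing the data and tests fewer genes, and median-ratio scaling moved the median of all genes in the difference between stage changes to -0.01, against 0.10. For other changes of a count the cause was not tested.

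On the protein-coding scale, the direction of the stage change turned for members close to 0 or little lower on the TPM scale. Those called on either scale were, after ROSI, Cox6a1 (0.53, against -0.09 on the TPM scale), Cox6b2 (0.050, -0.56), Cox8a (0.46, -0.15), Ndufb11 (0.14, -0.47) and Ndufb6 (0.52, -0.08). After ICSI they were Atp5g3 (0.034, -0.52), Cox6a1 (0.51, -0.14), Cox6b2 (0.46, -0.18), Cox7b (0.039, -0.60), Ndufb11 (0.041, -0.60), Sdhb (0.53, -0.05) and Uqcr10 (0.43, -0.22). A further 4 members after ROSI and 5 after ICSI changed sign with no call on either scale. Over all members, contrasts and alternatives, 193 of 8286 values lost a call, 63 gained one and 12 with a call turned; the other 8018 stayed on their side of the threshold, and 264 of those changed sign with no call in either.

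With the replicate number as a block, the counts were 11 and 3 in 2-cell ROSI against ICSI, 24 and 41 and 22 and 44 for the stage changes after ROSI and after ICSI, and 0 and 0 in zygotes and for the difference between stage changes. Replicate 1 of the ICSI 2-cell libraries, at 8.48 M reads, gives the least precise values of low members.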

Other observations

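The 13 subunits encoded in mitochondrial DNA, which the nuclear members join in complexes I, III, IV and V, fell into 2 levels. Of these, 7 (mt-Nd1, mt-Nd2, mt-Nd4, mt-Nd5, mt-Nd6, mt-Cytb and mt-Co1) lay between 1320 and 18150 TPM in the 11 libraries, and all 7 rose in 2-cell embryos against zygotes after ROSI and after ICSI. The other 6 (mt-Nd3, mt-Nd4l, mt-Co2, mt-Co3, mt-Atp6 and mt-Atp8) lay between 10.9 and 121 TPM, and of them 5 rose after ROSI and 0 passed after ICSI (limma; 0 at an unadjusted p under 0.05). Of the 13, 12 (92.3%) rose after ROSI and 7 (53.8%) after ICSI, beside 35.6% and 33.0% of all genes tested. Summed, the 13 genes had 57304 to 63911 TPM in ROSI and 50973 to 57223 TPM in ICSI 2-cell embryos, against 21879 to 31485 TPM in ROSI and 26137 to 29426 TPM in ICSI zygotes. The ROSI and ICSI 2-cell ranges do not overlap, though 0 of the 13 genes passed between them (limma; 1 at an unadjusted p under 0.05). How reads shared with nuclear copies of mitochondrial DNA were counted is not given in the sources used here.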
